A study of Homo sapiens with 2 samples.

Results

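Fatty acid oxidation was described through 38 genes of its enzymes, carriers and closely tied lipid proteins, taken by symbol from the deposited table of Hep3B RNA-seq. All 38 had values, out of 11511 genes with values in the table. Hep3B is an established human hepatocellular carcinoma line. The control was 1 library of cells given no treatment, and the other group was 1 library of cells exposed for 24 h to 25 µM A4368, a compound known here only by that code. Both groups were grown in DMEM with fetal bovine serum, and no vehicle is named in the labels. The comparison asks how the compound alters messenger levels across the genome, and these genes cover the breakdown of fatty acids. The spread between cultures was not measured, each group being 1 library, so no p-value is given and a difference here is one between 2 libraries. A lower value in a bulk library can come from fewer cells of a type or from less RNA per cell, and these cannot be told apart.

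Fatty acids are first activated to acyl-CoA. The carnitine shuttle then carries long chains into mitochondria, where a repeated cycle of dehydrogenation, hydration, second dehydrogenation and thiolysis shortens the chain. Electrons from the acyl-CoA dehydrogenases pass through electron transfer flavoprotein (ETF) to the respiratory chain. Peroxisomes run a parallel cycle for very long, branched and dicarboxylic chains and hand shortened products back to mitochondria. In liver, the receptor PPAR alpha is the best known activator of genes in both compartments.

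The libraries looked like hepatocyte-derived cells. All 12 hepatocyte markers had values, from 27.4 to 11457 FPKM (fragments counted per kilobase of a transcript and corrected for library size) in untreated and from 29.7 to 11651 FPKM in treated cells. With A4368, 8 of the 12 were lower and 4 higher. The markers furthest below the control, picked after their values were seen, were the secreted proteins APOH and AHSG. APOH was at 374 and 238 FPKM or 1.57-fold lower, and AHSG at 864 and 586 FPKM or 1.47-fold lower. The part of these shifts in the results below was not tested. Among other cell types, 3 of 8 leukocyte and blood markers, 1 of 10 fibroblast and endothelial markers and 1 of 10 adipocyte and muscle markers had values. The summed level of the leukocyte markers was 50.1 FPKM in untreated and 39.9 FPKM in treated cells, and their part in the results below was not tested. The fibroblast marker LUM was at 17.9 and 11.9 FPKM, also with its part not tested. The marker from the adipocyte and muscle list was CPT1B, the muscle form of the entry enzyme, at 6.83 FPKM in untreated and 8.89 FPKM in treated cells. Genes without values in the table could not be placed. The median level over the 11511 genes was 13.3 FPKM in untreated and 13.5 FPKM in treated cells, and the read depth is unknown.

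Upstream sequence is shown first for the members whose libraries differed most in each direction and had a usable window. RefSeq start sites on GRCh38.p14 were matched by symbol for 31 of the 38 members. The bases below lie before the RefSeq start and outside every exon of GENCODE release 29, and run 5′ to 3′ along the gene's strand. Capitals mark the closest match to AGGTCANAGGTCA, the direct repeat (DR1) bound by PPAR and HNF4 factors, on either strand. The first lies at chr11:68844411-68844527 (minus strand), the second at chr19:4153389-4153441 (plus strand) and the third at chr2:88128117-88128150 (minus strand). The CPT1A stretch is shown because that gene had the largest ratio among the enzymes and carriers. It carries no capitals because no run of 13 letters in the 250 bases before the start came within 2 mismatches. Only 1 start of CPT1A was searched, and other starts may differ. Those bases held 44.4% G and C, against a median of 68.8% over the members with a window.
CPT1A: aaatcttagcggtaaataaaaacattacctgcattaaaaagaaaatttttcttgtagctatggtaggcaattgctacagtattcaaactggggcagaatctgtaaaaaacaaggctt
CREB3L3: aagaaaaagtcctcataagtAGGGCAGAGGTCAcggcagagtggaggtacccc
FABP1: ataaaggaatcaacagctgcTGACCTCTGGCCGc
The CREB3L3 match has 1 mismatch and begins 222 bases before the start. The FABP1 match has 2 mismatches, is read on the opposite strand and begins 68 bases before the start. Within 2 mismatches, 4 of the 31 members held the letters in the 250 bases before a start, namely ACAA2, ACSL1, CREB3L3 and FABP1, or 12.9%. The matches of ACAA2 and ACSL1 overlap an exon of GENCODE release 29 and are not shown. A gene with several starts, such as ACSL1, was counted if any start had a match. The share was 2.74% of the 8853 tested genes with a window and 3.14% of all 27305 genes with a window. An exact match was found in 0 of the 31 members and in 0.022% of all genes with a window. The libraries differed in both directions for these 4 members. CREB3L3 was higher with A4368, ACSL1 was close to equal, and ACAA2 and FABP1 were lower. A match of letters is a description and does not show binding.

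Across the 38 members, 26 (68.4%) were higher and 12 lower with A4368. Their median log2 ratio was 0.11, where the ratio is log2((A4368 + 1)/(control + 1)) of the FPKM values, a scale that understates the difference of low genes. Over the 11238 genes tested, those whose mean reached 1 FPKM, the median was 0.0098, with 52% of genes higher and 48% lower. The differences were small. A limit of 0.32 log2 units was passed upward by 6 members, or 15.8%, namely CREB3L3, CPT1A, ACADS, ETFDH, ACAA1 and HADHA, against 7.31% of all tested genes. It was passed downward by 0 members, against 7.79% of all tested genes. A limit of 1.5-fold on the same scale was passed by 1 member, CREB3L3, against 1.08% of all genes upward, and by 0 members downward, against 2.12%. The number past 0.32 upward was 10 after both libraries were rescaled to a common sum that leaves out the 50 highest genes, when 11.8% of all genes passed it upward and 7.10% downward. Without the 13 members that share over 10% of exon bases or 31-base sequence words with another gene, 3 of 25 passed it, or 12%. The share over all genes without those 13 members was 7.30%, and genes outside the members were not screened for shared sequence. CREB3L3 did not pass 1.5-fold with a pseudocount of 5. ACADM at a log2 ratio of 0.30 and FABP1 at -0.31 lay just inside the limit of 0.32. The summed level of the members was 2196 FPKM in untreated and 2209 FPKM in treated cells, a ratio of 1.01, since the members with the most messenger were mostly close to equal or lower. Over all tested genes the sum was 553973 FPKM in untreated and 535567 FPKM in treated cells, a ratio of 0.967.

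**Figure D1:**
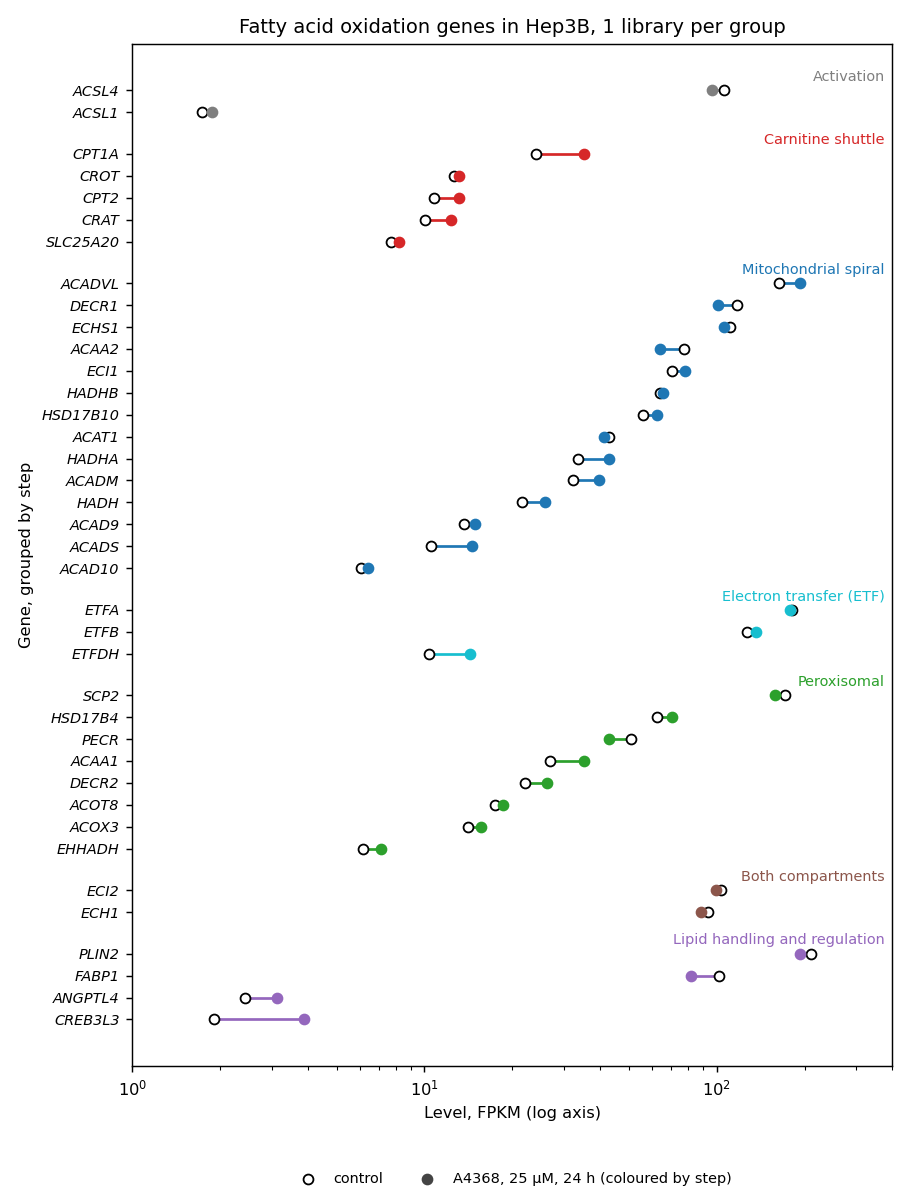
Level of each member in FPKM (log axis), by step, with the control library as open circles and the A4368 library as filled circles. The 5 carnitine shuttle genes all lie further right with A4368, the widest gap being CPT1A from 24.2 to 35.0 FPKM, while abundant genes such as PLIN2 and SCP2 moved little to the left.

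The carnitine shuttle was the step with all of its members higher. CPT1A, the liver form of the outer membrane enzyme that commits long chains to mitochondria, stood at 24.2 FPKM in untreated and 35.0 FPKM in treated cells, which is 1.45-fold higher. Of the 2484 genes with a mean from 20 to 50 FPKM, 98.9% had a lower ratio than CPT1A. CPT2, which rebuilds acyl-CoA inside the mitochondrion, was at 10.8 and 13.2 FPKM, or 1.22-fold higher. CRAT, the acetyltransferase that buffers short chains in mitochondria and peroxisomes, was at 10.0 and 12.3 FPKM, or 1.23-fold higher. The pair differed by the same modest amount from similar levels.
SLC25A20, the inner membrane carrier that exchanges acylcarnitine for carnitine, was at 7.69 and 8.18 FPKM. CROT, the peroxisomal octanoyltransferase that exports medium chains, was at 12.6 and 13.2 FPKM. They were 1.06-fold and 1.05-fold higher, so the shuttle was split between genes with a visible difference and genes close to equal. The median log2 ratio of the shuttle was 0.26, against 0.13 for the mitochondrial cycle and 0.15 for the peroxisomal genes. These medians rest on 5, 14 and 8 genes, and no test of the difference was possible. The steps also differ in level, and ratios varied with level in all genes. Control levels ran from 7.69 to 24.2 FPKM in the shuttle, from 6.08 to 164 FPKM in the mitochondrial cycle and from 6.18 to 172 FPKM in the peroxisomal genes. After centring within level classes, chosen after seeing the data, the medians were 0.22, 0.13 and 0.11, and the part of level was not tested further. Without the members that share over 10% of exon bases or sequence words with another gene, the medians were 0.18 for 4 shuttle genes, 0.16 for 11 genes of the mitochondrial cycle and 0.17 for 3 peroxisomal genes, so the lead of the shuttle was nearly gone.

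Activation gave no common direction. ACSL1, the main liver acyl-CoA synthetase of triglyceride and oxidation pathways, was barely listed, at 1.73 FPKM in untreated and 1.87 FPKM in treated cells. ACSL4, which prefers arachidonate and is raised in many liver tumours, was at 106 and 96.4 FPKM. ACSL4 messenger exceeded ACSL1 by far in each library on this per-length scale, and neither passed the 0.32 limit.

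In the mitochondrial cycle 10 of 14 genes were higher and 4 lower. The first step belongs to the acyl-CoA dehydrogenases, and all 5 of these were higher. ACADVL, which takes very long chains, stood at 164 FPKM in untreated and 192 FPKM in treated cells, or 1.18-fold higher, and 96.9% of the 921 genes at 100 FPKM or more had a lower ratio. ACADM, the medium-chain enzyme, was at 32.2 and 39.7 FPKM, or 1.24-fold higher. ACADS, the short-chain enzyme, was at 10.5 and 14.5 FPKM, or 1.38-fold higher. The 3 chain-length enzymes thus kept the same order of level in both libraries, ACADVL over ACADM over ACADS.
ACAD9, which also serves as an assembly factor of complex I, was at 13.7 and 14.9 FPKM, and its relative ACAD10 was at 6.08 and 6.43 FPKM. They were 1.08-fold and 1.06-fold higher, the smallest ratios of the family.

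The trifunctional protein, which carries out the later steps for long chains, gave unequal subunits. HADHA, the alpha subunit with hydratase and dehydrogenase activity, was at 33.6 FPKM in untreated and 42.8 FPKM in treated cells, or 1.28-fold higher. HADHB, the thiolase subunit, was at 64.1 and 65.5 FPKM, or 1.02-fold higher. The level of HADHA was 0.52 of that of HADHB in the control and 0.65 with A4368. The genes lie head to head with 307 bases between their RefSeq starts on GRCh38.p14. HADHA shares 15.9% of its 31-base sequence words with other genes, the pseudogene HADHAP2 holding the most, and HADHB shares 2.74%, and the part of shared reads in the difference was not tested.

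The enzymes of short and medium chains went both ways. HADH, the 3-hydroxyacyl-CoA dehydrogenase, was at 21.6 and 25.8 FPKM, or 1.20-fold higher. HSD17B10, a dehydrogenase of branched-chain intermediates that is also a subunit of mitochondrial RNase P, was at 55.9 and 62.5 FPKM. ECHS1, the short-chain hydratase, was at 111 and 106 FPKM. Hydration and second dehydrogenation therefore differed by 1.20-fold at most outside the trifunctional protein.
ACAA2, the medium-chain thiolase, was the lowest of the cycle, at 77.1 FPKM in untreated and 64.2 FPKM in treated cells, or 1.20-fold lower. ACAT1, the acetoacetyl-CoA thiolase of ketone and isoleucine metabolism, was at 42.7 and 41.2 FPKM. Of these free thiolases of the mitochondrion, ACAA2 was thus lower, while ACAT1, at 1.04-fold lower, was close to equal. ACAA2 shares 20.1% of its sequence words with other genes, and the part of shared reads in its difference was not tested. Most dehydrogenases were on the higher side, although ACAD9 and ACAD10 were only 1.08-fold and 1.06-fold higher.
Of the helpers for unsaturated chains, ECI1, an isomerase, was at 70.1 and 78.2 FPKM, and DECR1, the dienoyl-CoA reductase, was at 118 and 101 FPKM, or 1.16-fold lower.

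Electron transfer showed its largest difference at the last protein. ETFDH, the ubiquinone oxidoreductase that receives electrons from ETF, stood at 10.4 FPKM in untreated and 14.3 FPKM in treated cells, or 1.38-fold higher. ETFA and ETFB encode the subunits of ETF. ETFA was at 181 and 178 FPKM and ETFB at 127 and 137 FPKM, so the abundant carrier subunits were 1.02-fold lower and 1.08-fold higher. On the opposite strand, exons of PPID and C4orf46 overlap 13.8% of the exon bases of ETFDH in GENCODE release 29. No label says whether the libraries kept the strand, so reads of these genes cannot be told apart there.

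**Figure D2:**
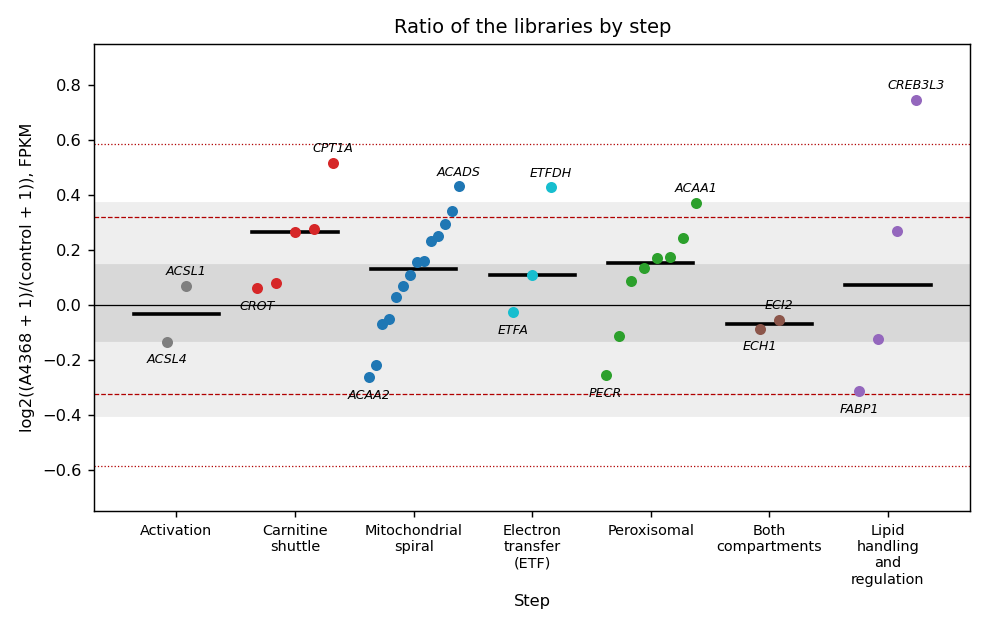
Log2 ratio of each member (points) by step, with the median of each step as a black bar, the central 50% and 90% of all tested genes as dark and light grey bands, and the limits of 0.32 log2 units and 1.5-fold as dashed and dotted lines. CREB3L3 at 0.75 is the only member beyond the 1.5-fold limit, and the shuttle has the highest median, 0.26.

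Of the 8 peroxisomal genes 6 were higher and 2 lower. ACAA1, the peroxisomal thiolase, had the largest ratio, at 26.9 FPKM in untreated and 35.2 FPKM in treated cells, or 1.31-fold higher, with 97.2% of genes at 20 to 50 FPKM below it. DLEC1 on the opposite strand overlaps 19.7% of its exon bases, and that gene had no value in the table. DECR2, the peroxisomal dienoyl-CoA reductase, was at 22.1 and 26.4 FPKM, or 1.19-fold higher. These were the members of the compartment furthest above the control.
The bifunctional enzymes were closer to the control. HSD17B4, the D-bifunctional protein of branched and very long chains, was at 62.4 and 70.5 FPKM. EHHADH, the L-bifunctional protein and a classical PPAR alpha target, was at 6.18 and 7.11 FPKM. These enzymes were 1.13-fold and 1.15-fold higher, although the D form was far more abundant.
ACOX3, an oxidase of branched chains, was at 14.1 and 15.6 FPKM. ACOT8, a peroxisomal thioesterase, was at 17.4 and 18.5 FPKM. SCP2, which encodes a sterol carrier protein and a thiolase from alternative starts, was at 172 and 159 FPKM. PECR, a peroxisomal enoyl-CoA reductase, was the lowest at 51.1 and 42.7 FPKM, or 1.20-fold lower. ACOT8 shares 35.3% of its exon bases with SNX21 on the opposite strand, the largest overlap among the members.
ECI2 and ECH1, isomerases found in both compartments, were at 103 and 99.4 FPKM and at 93.7 and 88.3 FPKM. They were 1.04-fold and 1.06-fold lower.

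Of 4 pairs in which an activity has a mitochondrial form and one in peroxisomes, 3 pointed in opposite directions and 1 in the same. Among thiolases, ACAA2 of the mitochondrion was 1.20-fold lower and ACAA1 of the peroxisome 1.31-fold higher, so their level ratio went from 2.86 to 1.83. Among dienoyl-CoA reductases, DECR1 was 1.16-fold lower and DECR2 1.19-fold higher, and their level ratio went from 5.33 to 3.83. Among isomerases the order was the other way round, with ECI1 of the mitochondrion 1.12-fold higher and the shared ECI2 1.04-fold lower. In these 3 pairs the gene with less messenger was the higher with A4368. Among the multifunctional enzymes both forms were higher, and the more abundant HADHA of the mitochondrion had the larger log2 ratio, 0.34 against 0.18 for EHHADH of the peroxisome. Each of the 4 pairs holds at least 1 member with over 10% of exon bases or sequence words shared with another gene, and the part of shared reads was not tested.

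The size and sign of the ratio varied with level. The split at 50 FPKM that follows was chosen after the values were seen. Of the 22 members with a mean below 50 FPKM, 20 were higher, or 90.9%, all but ACAT1 and PECR, with a median log2 ratio of 0.25. All tested genes of that range were higher in 55.5% of cases with a median of 0.030. Of the 16 members at 50 FPKM or more, 6 were higher, or 37.5%, with a median of -0.060, and all genes of that range were higher in 34.4% of cases, with a median of -0.055. At high levels the members therefore had nearly the same median as other genes. The abundant members that were higher were ACADVL, HADHB, HSD17B10, ECI1, ETFB and HSD17B4.

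**Figure D3:**
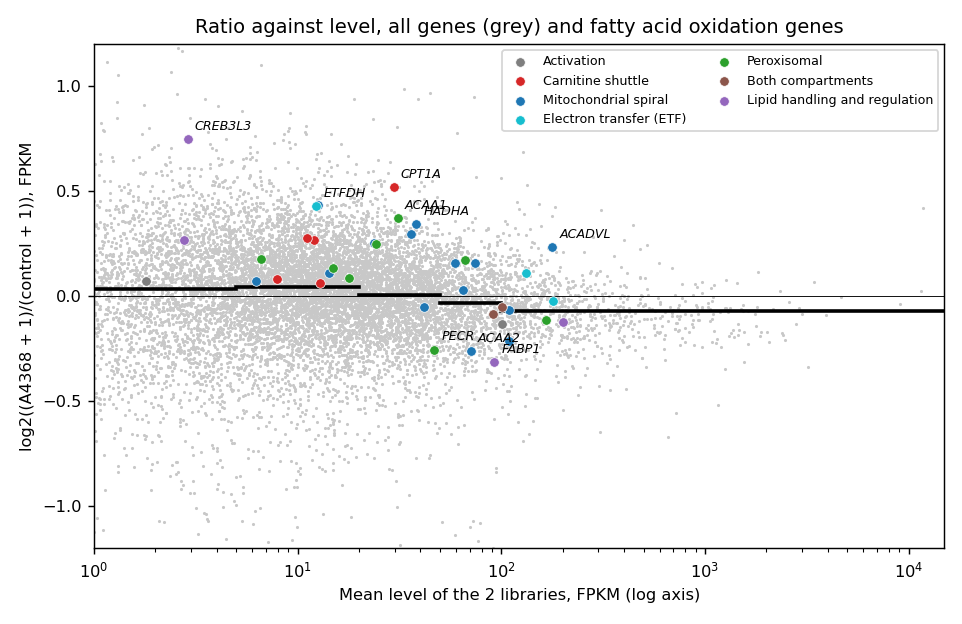
Log2 ratio against the mean FPKM of both libraries (log axis) for 11238 genes in grey and the members in colour, with the median of all genes in 5 level classes as black bars, and 24 genes outside the plotted ratio range. Below 50 FPKM most members lie above the grey median, and above it they spread around it.

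The proteins tied to lipid handling and its control gave the extremes in both directions. CREB3L3, a liver transcription factor that acts with PPAR alpha in fasting, stood at 1.90 FPKM in untreated and 3.86 FPKM in treated cells, or 2.03-fold higher. At this level the ratios of all genes spread widely, with an SD of 0.34 log2 units in the 2476 genes from 1 to 5 FPKM, against 0.16 in those at 100 FPKM or more. Its exons overlap no other gene and share no sequence words. ANGPTL4, a secreted lipase inhibitor and PPAR target, was at 2.42 and 3.12 FPKM, or 1.29-fold higher.
FABP1, the liver fatty acid binding protein, stood at 102 FPKM in untreated and 82.1 FPKM in treated cells, a log2 ratio of -0.31. Of the 963 genes at 50 to 100 FPKM, 5.30% had a lower ratio. PLIN2, which coats lipid droplets, was at 209.7 and 192 FPKM, or 1.09-fold lower. The 4 genes are commonly listed as PPAR alpha targets or partners, and here the scarce ones were higher and the abundant ones lower.

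Other genes of oxidation outside the 38 were closer to the background. Of 37 listed, 29 were tested, 17 were higher and 12 lower, with a median log2 ratio of 0.035. The 0.32 limit was passed upward by 3, or 10.3%, against 7.31% of all tested genes, and downward by 0, against 7.79%. Those 3 were ACAD11, a dehydrogenase of long chains, at 4.79 and 6.57 FPKM, TMLHE, the first enzyme of carnitine synthesis, at 4.52 and 6.07 FPKM, and ACADSB, a dehydrogenase of branched short chains, at 8.27 and 10.6 FPKM.
Among 19 tested regulators of 25 listed, 12 were higher and 7 lower, with 4 past 0.32 upward, or 21.1%, and 2 downward, and the median was 0.11. PPARD, a PPAR receptor of many tissues, was at 8.74 and 12.3 FPKM, or 1.41-fold higher, and SIRT3, a mitochondrial deacetylase, was at 8.65 and 11.1 FPKM. TXNIP, a glucose-responsive regulator of glucose uptake, was at 20.6 and 14.4 FPKM, or 1.43-fold lower. ACACA, which makes the malonyl-CoA that inhibits CPT1A, was at 13.2 and 9.80 FPKM, or 1.35-fold lower. The receptor gene PPARA and ACACB, the mitochondrial counterpart of ACACA, lay outside the rule for named genes and were near the floor of the table. PPARA was at 1.22 and 1.87 FPKM and ACACB at 0.95 and 1.62 FPKM, with log2 ratios of 0.37 and 0.43. Both are among the 4 regulators past 0.32 upward, beside PPARD and SIRT3. PPARG, also outside that rule, had more messenger than PPARA or PPARD. It was at 51.5 FPKM in untreated and 43.6 FPKM in treated cells, or 1.18-fold lower, so the PPAR genes had no common direction.

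The peroxins, which build peroxisomes, had no common direction. Of 15 tested, 7 were higher and 8 lower, with a median of -0.0094, and 3 passed 0.32 upward, or 20%. PEX11A, which divides peroxisomes, was at 6.46 and 9.59 FPKM, or 1.48-fold higher, PEX14, of the import pore, was at 6.76 and 9.08 FPKM, and PEX19, a membrane protein chaperone, was at 26.8 and 33.7 FPKM. Of 21 tested fatty acid synthesis genes 14 were higher, or 66.7% against 52% of all genes, with a median of 0.091, and 3 passed 0.32 upward, or 14.3%, and 1 downward. Of these, DGAT1, which makes triglyceride, was 1.37-fold higher, ME1, a source of NADPH, 1.34-fold, and MLXIPL, a carbohydrate-responsive factor, 1.43-fold, while ACACA, which is on both lists, was lower. The nuclear-encoded respiratory chain gave 20 of 37 higher with a median of 0.0089. NDUFS7, a complex I subunit, stood apart there at 97.5 and 158 FPKM, and NDUFS8 and NDUFV1 were 1.14-fold and 1.16-fold higher while NDUFV2 was 1.27-fold lower. The list medians of the members, the regulators and the synthesis genes were thus 0.11, 0.11 and 0.091, and no test separates them. The shares past 0.32 upward among the regulators and the peroxins were above the 15.8% of the members, and all 3 were above the 7.31% of all tested genes. These shares rest on few genes, and that of the regulators counts PPARA and ACACB, which lie near the floor of the table.

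**Figure D4:**
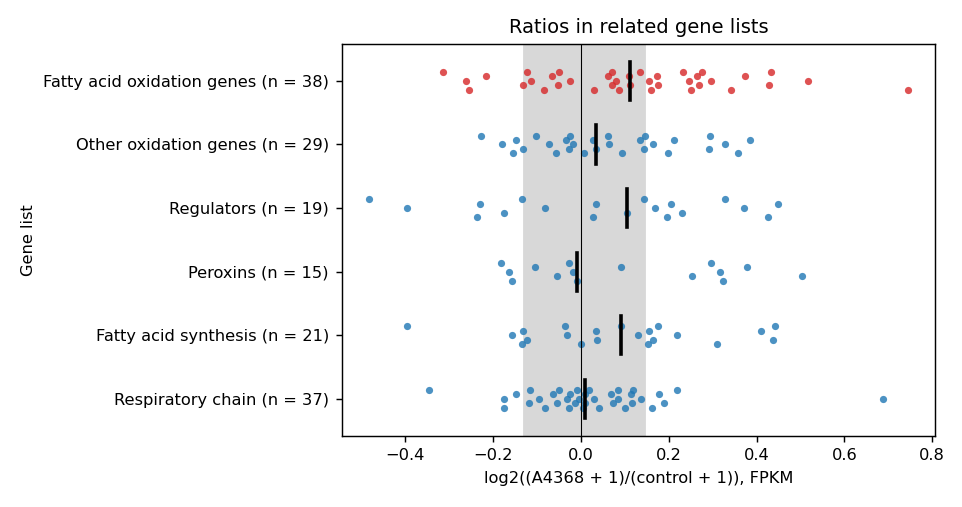
Log2 ratios of the members (red) and of related gene lists (blue), with list medians as black bars and the central 50% of all tested genes in grey. The medians of the oxidation members and the regulators are both 0.11, and that of the respiratory chain is 0.0089.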

How the data were processed

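The authors deposited 1 table of gene symbols with a value for each of 2 libraries. No unit stands in the header. Per the submitters' processing notes the tools were Cufflinks, Bowtie2 2.2.3 and TopHat2 2.0.12 and the build was hg19, so the deposited values were read as FPKM. No source used here names the annotation or a filter. Of 24302 lines, 11511 held values, none with a mean under 0.496 FPKM. Values under 3 FPKM (1680 genes) showed no whole-read steps, with no more than 6 genes at the same ratio to 3 decimals, so the depth is unknown and no interval or floor can be given.

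Ratios were log2 with a pseudocount of 1, over the 11238 genes whose mean reached 1 FPKM. Folds are plain ratios. The members and lists were chosen with earlier results of these data known. Named genes are all members and, from each related list, at most 4 with the largest absolute ratio where the mean reached 5 FPKM. A few genes of these lists are not reported here by name. Protein features were planned and not analysed here. Overlapping exons and shared 31-base words came from GENCODE release 29 (GRCh38). Because that build differs from hg19, it served only for which genes overlap or neighbour each other, and upstream sequences are RefSeq's on GRCh38.p14. Motifs were searched on both strands in the 250 bases before each start. The procedure was tested on simulated data. Alternatives changed the pseudocount, filter, scaling and grouping. Python 3.11.15, numpy 2.4.6 and pandas 2.3.3 were used.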

Additional observations from a re-analysis of the deposited data

How the results depend on the processing

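Over 7 alternative settings of pseudocount, filter and scaling, 35 of the 38 members kept their sign in each setting that held them, 26 higher and 9 lower. ECHS1, ECI2 and ETFA, all near 0, changed sign in at least 1. CPT1A, ACADS, ETFDH, ACAA1 and CREB3L3 stayed past 0.32 log2 units in each setting that held them, and HADHA did not with a pseudocount of 5. CREB3L3 passed 1.5-fold as reported, and 0 members did with a pseudocount of 5 or a filter at 5 FPKM. Its log2 ratio ranged from 0.36 to 0.99. After rescaling of both libraries to a common sum that leaves out the 50 highest genes, 10 members were past 0.32 upward against 6, the median of all genes shifted by 0.048, and the activation median became 0.023. With the filter at 5 FPKM the activation median was -0.13 and that of lipid handling and regulation became -0.22, since only their abundant members were left. Chosen after seeing the data was a run without the 13 members that share over 10% of exon bases or sequence words with another gene. It left 7 lower members and 3 past 0.32 upward (CPT1A, ACADS and CREB3L3), and the ETF step, reduced to ETFA, had a ratio of -0.025. The step medians of that run were 0.18 for the shuttle, 0.16 for the mitochondrial cycle and 0.17 for the peroxisomal genes. Also chosen then was centring within level classes, which gave 29 higher members and a median of 0.080. The median of the members lay between 0.080 and 0.16 in all of these settings. A summary value was said to move when it differed by over 0.1 log2 units, or a count by over 1.5 times. No paired analysis was possible because each group held 1 library. The unknown depth limits most the genes under 5 FPKM.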

Other observations

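The letters GGGCGG, the GC box of many housekeeping promoters, were found on either strand in the 250 bases before a RefSeq start for 26 of the 31 members with a window, or 83.9%, against 76% of the 8853 tested genes with a window and 46.2% of all genes with a window. The 5 members without them were ACAA2, ACOT8, CPT1A, CREB3L3 and FABP1. These include the highest ratios among the members with a window, CREB3L3 at 0.75 and CPT1A at 0.52, and the lowest, FABP1 at -0.31 and ACAA2 at -0.26, while ACOT8 was at 0.088. This was noticed after the values were seen, rests on 5 genes and was not tested. Each of the 5 had 1 start searched, CPT1A included, while some other members such as ACSL1 had several.

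Several members share a divergent start region with a neighbour that has its own value. ACAD10 and BRAP start 97 bases apart and were 0.071 and 0.060 in log2 ratio. ACOT8 and ZSWIM3, 222 bases apart, were 0.088 and 0.11. ACOX3 and TRMT44, 54 bases apart, were 0.14 and 0.26. PECR and TMEM169, 110 bases apart, were -0.25 and 0.29, the pair with opposite signs, with TMEM169 at 2.95 FPKM in untreated and 3.84 FPKM in treated cells.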
